A study of Mus musculus with 8 samples.

Results

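Immediate early response genes are genes that cells switch on within minutes of a stimulus, from factors already present and without new protein synthesis. The 10 genes described here are Fos, Fosb, Jun, Junb, Atf3, Egr1, Myc, Dusp1, Ier2 and Ier3, taken by their Ensembl identifiers from a list of named genes that was drawn up with earlier results of these data known. They are 10 of 28785 genes listed in any of 4 RNA-seq libraries, and all 10 were listed in every library. The fibroblasts came from mouse embryos and are cells of connective tissue kept in culture, with genotype TSC2+/+ on a C57BL/6J background. They were either left without heat shock or were held at 42 °C for 1 h and then returned to 37 °C for 3 h, so the heat-shocked cells were sampled in recovery. Each culture was separated into cytoplasm and a chromatin pellet that remained after nuclei had been lysed in a buffer with urea, and both lysis buffers held α-amanitin, an inhibitor of RNA polymerase II. This gave 1 library for each of chromatin and cytoplasm without heat shock and chromatin and cytoplasm after it. With 1 library per group there is no replicate spread and no test, and every value describes these libraries.

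In resting fibroblasts, growth factor and stress signals reach these genes through MAP kinases, which act on serum response factor, its partner proteins and CREB-type factors already bound near the genes. The new messages are short-lived and most of the encoded proteins are themselves regulators. Fos, Fosb, Jun, Junb and Atf3 encode leucine zipper proteins that pair with each other to form AP-1 type transcription factors. Egr1 encodes a zinc finger transcription factor, and Myc a helix-loop-helix factor that drives growth. Dusp1 encodes a phosphatase that switches MAP kinases off again, Ier3 encodes a small protein that affects cell survival and MAP kinase signalling, and Ier2 encodes a nuclear regulator. Heat and other protein stress are known to act on several of these genes as well as on the heat shock protein genes.

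RefSeq promoter sequences were matched for 7 of the 10 genes. The 6 whose windows lie outside the gene are shown, because these genes moved by very different amounts after heat shock and an upstream sequence can be read beside each. Each is the 250 bases before the start in the RefSeq promoter table on build GRCm38.p6, 5′ to 3′ on the gene's strand, and capitals mark any of 7 searched motifs on either strand. They lie at chr17:26508473-26508722 (minus strand) for Dusp1, chr12:85473640-85473889 (plus strand) for Fos, chr1:191183334-191183583 (minus strand) for Atf3, chr4:95052223-95052472 (minus strand) for Jun, chr8:84978749-84978998 (minus strand) for Junb and chr17:35821463-35821712 (plus strand) for Ier3.
Dusp1: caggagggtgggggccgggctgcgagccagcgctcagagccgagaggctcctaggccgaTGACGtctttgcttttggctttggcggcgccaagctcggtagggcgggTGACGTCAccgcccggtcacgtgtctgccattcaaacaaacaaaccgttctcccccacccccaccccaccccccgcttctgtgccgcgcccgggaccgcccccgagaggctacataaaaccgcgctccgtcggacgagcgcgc
Fos: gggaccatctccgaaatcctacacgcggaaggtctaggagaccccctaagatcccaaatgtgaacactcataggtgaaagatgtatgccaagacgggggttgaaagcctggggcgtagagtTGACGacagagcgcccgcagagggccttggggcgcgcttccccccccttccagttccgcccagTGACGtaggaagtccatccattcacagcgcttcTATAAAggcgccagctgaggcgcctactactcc
Atf3: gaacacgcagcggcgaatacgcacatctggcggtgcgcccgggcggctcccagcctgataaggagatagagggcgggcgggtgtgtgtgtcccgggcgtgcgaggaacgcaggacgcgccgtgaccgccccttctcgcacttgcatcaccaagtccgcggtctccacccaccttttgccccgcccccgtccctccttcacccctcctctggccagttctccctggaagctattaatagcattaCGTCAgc
Jun: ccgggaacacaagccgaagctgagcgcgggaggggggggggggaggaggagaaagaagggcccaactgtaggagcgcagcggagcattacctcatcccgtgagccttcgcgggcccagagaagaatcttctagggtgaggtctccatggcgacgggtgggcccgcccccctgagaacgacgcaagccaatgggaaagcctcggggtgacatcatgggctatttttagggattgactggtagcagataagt
Junb: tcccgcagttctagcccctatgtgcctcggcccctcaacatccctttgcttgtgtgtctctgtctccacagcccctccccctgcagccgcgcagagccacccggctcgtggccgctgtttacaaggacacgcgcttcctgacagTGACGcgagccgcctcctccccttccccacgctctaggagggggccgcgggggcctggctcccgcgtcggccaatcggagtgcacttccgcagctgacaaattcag
Ier3: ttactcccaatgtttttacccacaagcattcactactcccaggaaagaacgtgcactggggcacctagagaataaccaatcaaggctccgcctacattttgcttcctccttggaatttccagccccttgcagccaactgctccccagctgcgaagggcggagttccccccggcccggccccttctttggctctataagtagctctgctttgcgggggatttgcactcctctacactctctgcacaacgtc

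The seventh window, that of Fosb, begins at a start inside the gene, and 73 of its 250 bases lie within the RefSeq span of Fosb. The cyclic AMP response element core TGACG was found in 5 of the 7 windows, those of Dusp1, Fos, Fosb, Atf3 and Junb, against 17.8% of 32851 promoter windows of the same length. The chromatin ratios after heat shock of the 5 genes with the core were 28.5 for Fosb, 11.7 for Dusp1, 8.46 for Fos, 7.15 for Atf3 and 1.77 for Junb. Those of Jun and Ier3, without it, were 2.70 and 1.68. Egr1, Ier2 and Myc, with ratios of 58.1, 2.92 and 1.00, had no matched window. The highest and the lowest ratio of the 10 genes are thus not covered. A link between the core and the ratio was not tested. Its full palindrome TGACGTCA, which contains the core on both strands, was found in Dusp1 alone among the 7, from 143 to 136 bases before the start, and in 1.55% of all windows. Fos held TATAAA from 33 to 28 bases before the start (12.4% of all windows). The core in Fosb and the EGR motif GCGGGGGCG there (2.57% of all windows) both lie in the stretch within the gene, so neither is upstream of its outermost start. The AP-1 motif TGANTCA (6.75% of all windows), the CArG box bound by serum response factor (1.47%) and the heat shock element bound by heat shock factors (0.466%, searched as 3 alternating GAA and TTC units with 2 free bases between them) were found in 0 of the 7 windows, which says only that these letters are absent there. The capital letters are matches to letters and are not evidence of binding. The member windows were rich in G and C, at 54.4% for Ier3 to 68.8% for Fosb, against a median of 52.4% over all windows.

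The values are RPKM, read numbers divided by the length of the gene and by the size of the library. Read numbers and gene lengths were recovered from them, and intervals on single genes are exact 95% intervals on those reads, which cover counting error only. The recovered lengths spanned whole genes with introns. For 8 of the 10 genes the recovered length lay within 100 bp of the RefSeq span of the gene of that name, and for Junb (1840 bp) and Ier2 (1522 bp) it was equal. Atf3 was counted over 47744 bp against a RefSeq span of 13038 bp, and Egr1 over 5162 bp against 3750 bp. Flanks of the added length on both sides of Atf3 hold 2 other RefSeq genes, Gm31696 and Fam71a, so reads of these may be part of its value. No RefSeq gene overlapped the RefSeq span of any of the 10.

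The library totals were 18364642 and 19536459 reads for chromatin without and after heat shock, and 8292312 and 11131382 for cytoplasm. In each library 10 genes, none of them among those described here, took a large share of the reads: 21.8% in unstressed and 32.6% in heat-shocked chromatin, and 75.9% and 79.8% in cytoplasm. RPKM divides by the library total, so a ratio between libraries depends on the scale, and in bulk RNA a change in the number of responding cells cannot be told apart from a change in RNA per cell. Identifiers other than the 10 are not paired with names in the sources used here, so fibroblast markers, fraction markers and heat shock protein genes were not analysed.

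**Figure D1:**
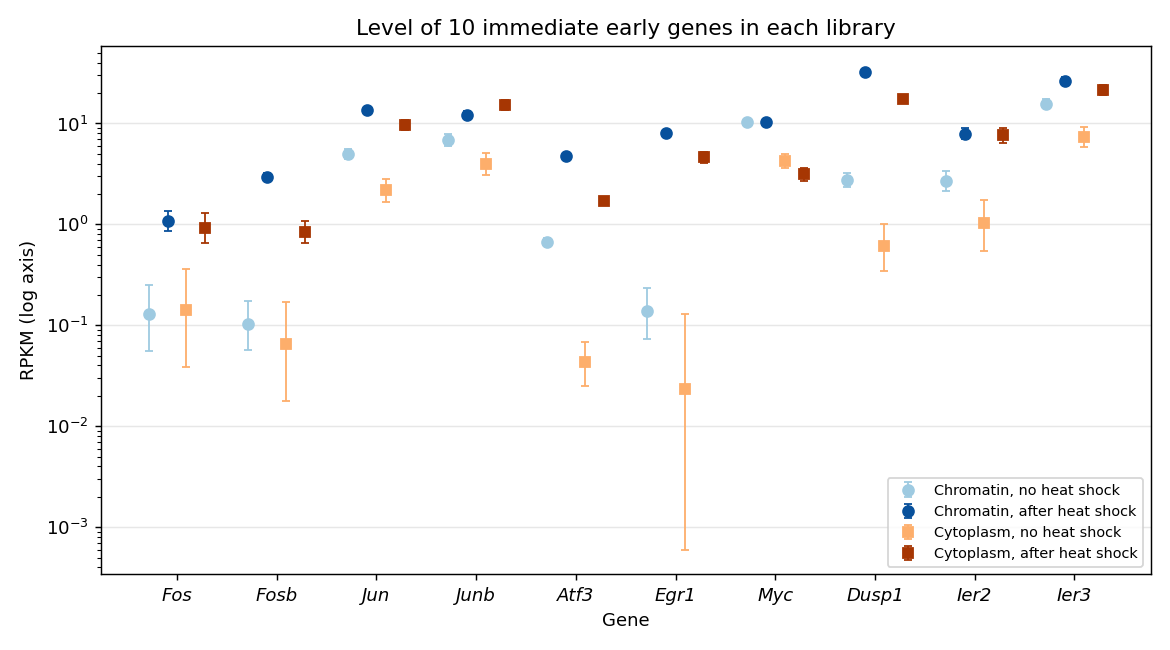
Level of each of the 10 genes in the 4 libraries, as RPKM on a log axis, with 1 point per library and bars for the exact 95% interval on its reads. Points after heat shock (dark) lie above those without (light) in both fractions for 9 genes, and Myc is the exception, at 10.3 RPKM in both chromatin libraries.

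The AP-1 genes Fos and Fosb were nearly silent without heat shock and were listed at several-fold higher levels in both fractions after it. Fos (ENSMUSG00000021250, chromosome 12, 85473890 to 85477274) had 0.129 RPKM in chromatin without heat shock (8 reads) and 1.09 after it (72 reads), and 0.143 (4 reads) and 0.929 (35 reads) in cytoplasm. Fosb, a close relative of Fos (ENSMUSG00000003545, chromosome 7, 19302696 to 19310118), had 0.104 (14 reads) and 2.97 RPKM (425 reads) in chromatin and 0.0659 (4 reads) and 0.846 (69 reads) in cytoplasm. Fos was 8.46-fold higher in chromatin (interval 4.07 to 20.3) and 6.52-fold higher in cytoplasm (2.33 to 25.2). Fosb was 28.5-fold higher in chromatin (16.8 to 52.6) and 12.9-fold higher in cytoplasm (4.80 to 48.5). Both heat-shocked libraries lay above both unstressed libraries for each of these genes. In chromatin the ratio of Fosb exceeded that of Fos by 3.37-fold (1.18 to 8.96), a comparison of genes within the same libraries that does not depend on the scale. In cytoplasm the excess was 1.97-fold with an interval of 0.343 to 11.2, which the few unstressed reads leave wide.

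Jun and Junb, the partners of Fos proteins in AP-1, were already well above most genes without heat shock. Jun (ENSMUSG00000052684, chromosome 4, 95049036 to 95052222) had 5.04 and 13.6 RPKM in chromatin without and after heat shock, and 2.19 and 9.69 in cytoplasm. Junb (ENSMUSG00000052837, chromosome 8, 84976909 to 84978748) had 6.87 and 12.2 RPKM in chromatin, and 4.00 and 15.3 in cytoplasm. In unstressed chromatin these levels were above those of 96.3% and 97.5% of listed genes, against 42.4% for Fos and 40.2% for Fosb. Jun was 2.70-fold higher after heat shock in chromatin (2.36 to 3.09) and 4.42-fold higher in cytoplasm (3.34 to 5.94). Junb was 1.77-fold higher in chromatin (1.51 to 2.09) and 3.83-fold higher in cytoplasm (2.91 to 5.13). The ratio of Jun exceeded that of Junb by 1.52-fold in chromatin (1.23 to 1.88), and by 1.15-fold in cytoplasm with an interval of 0.765 to 1.74.

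Atf3, a stress-induced member of the ATF/CREB family, showed its larger plain RPKM ratio in cytoplasm. Atf3 (ENSMUSG00000026628, chromosome 1, 191170296 to 191183333 in RefSeq) had 0.669 RPKM in chromatin without heat shock (587 reads) and 4.79 after it (4465 reads). In cytoplasm it had 0.0429 RPKM (17 reads) and 1.70 (904 reads). It was 7.15-fold higher in chromatin (6.56 to 7.81) and 39.6-fold higher in cytoplasm (24.6 to 68.3). On the log2 scale of RPKM + 1 the order was reversed, at 1.79 in chromatin and 1.37 in cytoplasm. Unstressed Atf3 RNA was 15.6-fold higher in chromatin than in cytoplasm (9.65 to 27.0). These values rest on the longest counted span of the 10 genes.

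Egr1 went from a very low start to a high plain RPKM ratio in both fractions. Egr1 (ENSMUSG00000038418) had 0.137 RPKM in chromatin without heat shock (13 reads) and 7.97 after it (804 reads), and 0.0234 RPKM in cytoplasm without heat shock (1 read) and 4.61 after it (265 reads). Both heat-shocked libraries lay far above both unstressed libraries. Egr1 was 58.1-fold higher in chromatin (33.8 to 110). The cytoplasmic ratio was 197-fold with an interval of 35.1 to 7826, since it rests on a single unstressed read. Both point values were the highest of the 10 genes, but their intervals overlapped that of Fosb in chromatin and those of Atf3, Dusp1 and Fosb in cytoplasm, so Egr1 was not set apart from these. On the log2 scale of RPKM + 1, Egr1 had 2.98 in chromatin and 2.46 in cytoplasm, below Dusp1 in both. Egr1 passed from above 43.2% to above 97.7% of listed genes in chromatin, and from 21.5% to 96.9% in cytoplasm.

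Dusp1, the phosphatase that acts against MAP kinases, was the highest of the 10 genes in chromatin after heat shock. Dusp1 (ENSMUSG00000024190, chromosome 17, 26505591 to 26508472) had 2.77 RPKM without heat shock (149 reads) and 32.4 after it (1854 reads) in chromatin. In cytoplasm it had 0.617 (15 reads) and 17.6 RPKM (574 reads). It was 11.7-fold higher in chromatin (9.89 to 13.9) and 28.5-fold higher in cytoplasm (17.1 to 51.3). On the log2 scale of RPKM + 1, where ratios of low genes are shrunk, its value of 3.15 in chromatin lay above 99.3% of the genes compared and its value of 3.52 in cytoplasm above 99.8%. Its interval in unstressed chromatin, 2.34 to 3.25 RPKM, overlapped that of Ier2, and after heat shock no other of the 10 genes reached its level there.

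Ier2 and Ier3 differed in starting level and in ratio. Ier2 (ENSMUSG00000053560, chromosome 8, 84661331 to 84662852) had 2.72 and 7.94 RPKM in chromatin without and after heat shock, and 1.03 (13 reads) and 7.61 in cytoplasm. Ier3 (ENSMUSG00000003541, chromosome 17, 35821713 to 35822911) had 15.7 and 26.5 RPKM in chromatin, and 7.39 and 21.5 in cytoplasm, and was the highest of the 10 genes in both unstressed libraries and in heat-shocked cytoplasm. Ier2 was 2.92-fold higher in chromatin (2.25 to 3.83) and 7.39-fold higher in cytoplasm (4.17 to 14.3). Ier3 was 1.68-fold higher in chromatin (1.48 to 1.92) and 2.91-fold higher in cytoplasm (2.26 to 3.80). The ratio of Ier2 exceeded that of Ier3 by 1.73-fold in chromatin (1.29 to 2.35) and 2.54-fold in cytoplasm (1.34 to 5.16). Ier2 lies 314 kb from Junb on chromosome 8, and their cytoplasmic ratios had overlapping intervals, while in chromatin Ier2 was at 2.25-fold or more and Junb at 2.09-fold or less.

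Myc was the exception among the 10 genes. Myc (ENSMUSG00000022346, chromosome 15, 61985341 to 61990361) had 10.3 RPKM in chromatin both without (952 reads) and after heat shock (1014 reads), and 4.26 (178 reads) and 3.16 (177 reads) in cytoplasm. The chromatin ratio was 1.00 (0.916 to 1.10), and in cytoplasm Myc was 1.35-fold lower (1.09 to 1.67). The median gene of the cytoplasmic comparison was also lower, at -0.25 on the log2 scale of RPKM + 1, against -0.34 for Myc. Myc had the lowest ratio of the 10 genes in both fractions, so larger ratios of the other 9 follow from taking it as reference. Setting them against Myc in the same libraries removes the scale and gives only the size of each gap. In chromatin the excess over Myc ran from 1.68-fold for Ier3 (1.43 to 1.97) to 58.1-fold for Egr1 (33.4 to 110), and in cytoplasm from 3.93-fold for Ier3 (2.80 to 5.53) to 266-fold for Egr1 (46.0 to 10623).

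Over all 10 genes, the whole counting interval lay above 2-fold in chromatin for 7 (Fos, Fosb, Jun, Atf3, Egr1, Dusp1 and Ier2) and past 2-fold lower for 0. By this rule 9.91% of 21442 genes listed in both chromatin libraries were called higher and 7.84% lower, and 10.9% of the 11776 with at least 100 reads over the 4 libraries, which all 10 genes had. In cytoplasm the interval lay above 2-fold for 9 of the 10 genes, against 3.88% of 15599 genes and 3.95% of the 11503 with at least 100 reads, and past 2-fold lower for 0, against 3.29%. The median log2 ratio of the 10 genes was 2.19 in chromatin and 2.80 in cytoplasm, against 0.10 and -0.42 for all genes listed in both libraries. With RPKM + 1 in the ratio and a filter that asks for at least 1 RPKM on average, 8 genes were kept and Fos (mean 0.572) and Fosb (mean 0.997) were not. Egr1 and Atf3 were kept through their heat-shocked libraries alone, so a count over the kept genes says little about them. Of these 8, 5 were at least 2-fold higher in chromatin (background 10.4%) and 7 in cytoplasm (background 3.4%). Among kept genes with spans of over 1 to 10 kb, the range that holds 9 of the 10 genes, the background was 13.6% in chromatin and 5.06% in cytoplasm.

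**Figure D2:**
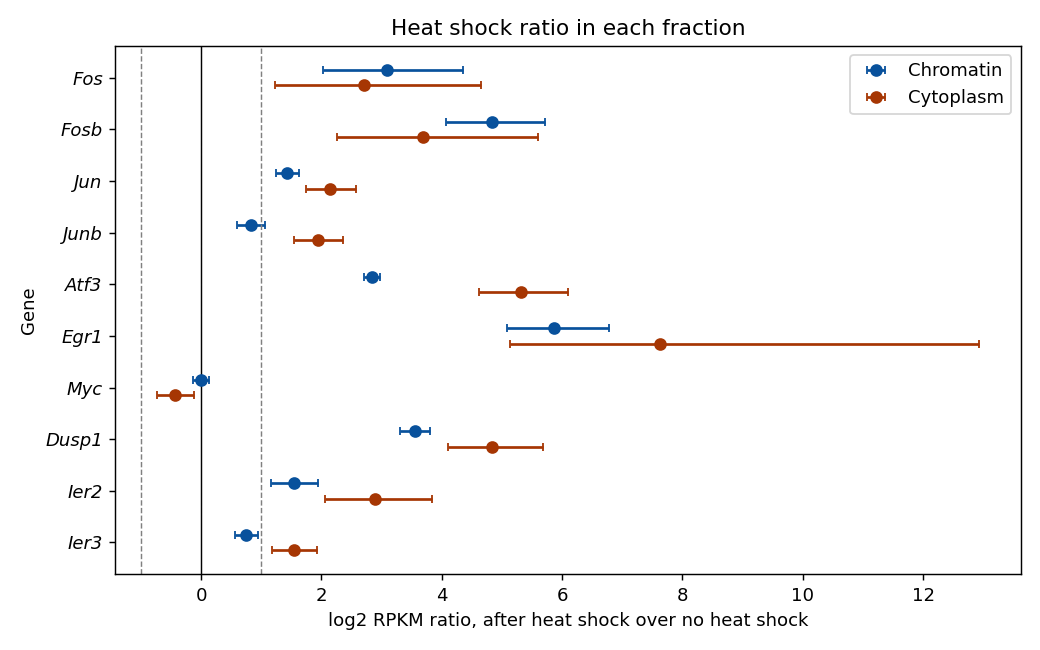
log2 RPKM ratio of heat-shocked over unstressed libraries for each gene in chromatin (blue) and cytoplasm (brown), with exact 95% counting intervals and dashed lines at 2-fold. In cytoplasm the whole interval lies past 2-fold for 9 genes, in chromatin for 7, and Myc sits at or below 0 in both.

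**Figure D3:**
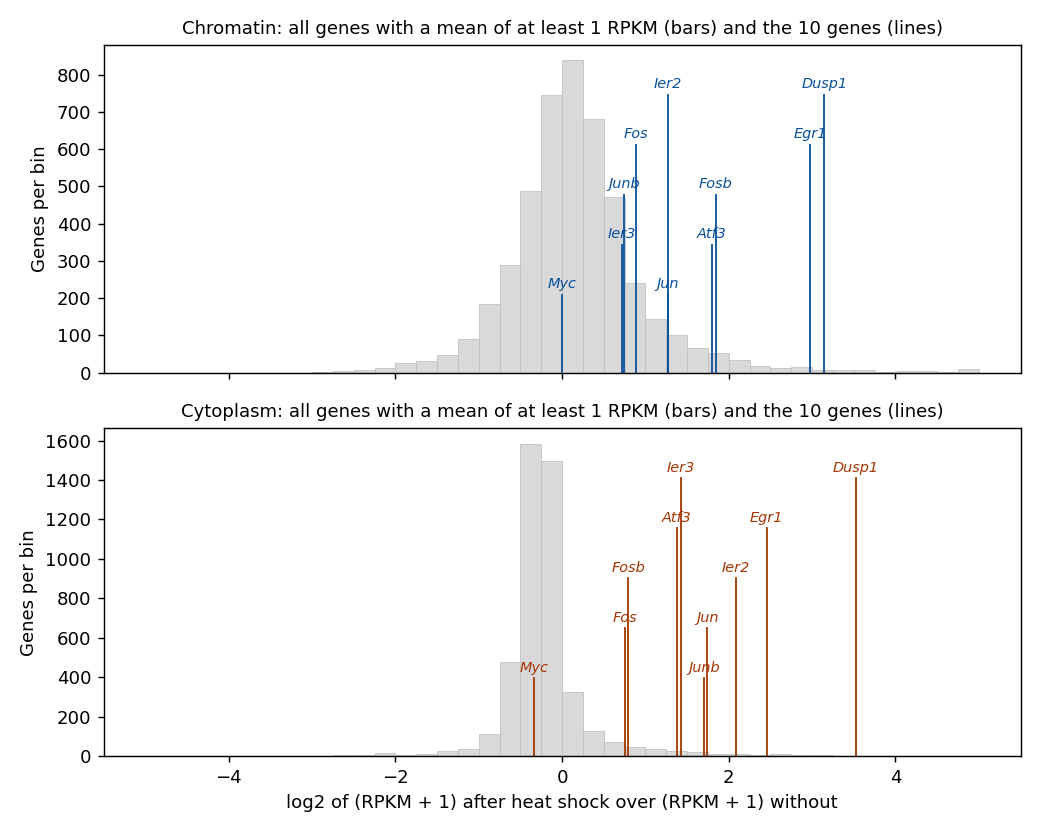
Number of genes per bin of the log2 ratio of RPKM + 1 after heat shock over without (bars, genes with a mean of at least 1 RPKM), with the 10 immediate early genes as labelled lines, in chromatin (top) and cytoplasm (bottom). In cytoplasm 9 of the lines stand in the right tail, from 0.76 for Fos to 3.52 for Dusp1, and Myc stands within the bulk at -0.34.

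In chromatin the smaller ratios depended on the scale. After each library was rescaled to the same RPKM sum, the log2 ratio of RPKM + 1 was 0.17 for Junb, 0.11 for Ier3 and -0.61 for Myc, while Jun (0.74) and Ier2 (0.81) fell below 2-fold. Egr1 (3.30), Dusp1 (2.73), Fosb (2.14) and Atf3 (1.68) were at least 2-fold higher both before and after the rescaling. Fos was below 2-fold before it (0.89) and just above after it (1.02), which is not a rise in its plain ratio. The RPKM sums were 242917 without and 378887 after heat shock, so the rescaling lowered every plain chromatin ratio by the same factor. It also raised the chromatin values before 1 was added, so the added 1 weighed less for genes with low values, such as Fos, Fosb and Egr1. In cytoplasm the same rescaling left 7 of the 8 kept genes at least 2-fold higher, from 1.01 for Atf3 to 3.06 for Dusp1. The share of all genes at 2-fold on this scale was not computed.

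Together the 10 genes took 146 of every 1000000 reads in unstressed chromatin (exact 95% interval 141 to 152) and 553 after it (542 to 563). In cytoplasm they took 51.5 (46.7 to 56.6) and 279 (269 to 289). Atf3 with its long span gave a large part of these sums, and without it the values were 114 and 324 in chromatin and 49.4 and 198 in cytoplasm. Both fractions thus held more reads of these genes after heat shock with and without Atf3.

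The order of the genes by RPKM changed with heat shock. In unstressed chromatin it was Ier3, Myc, Junb, Jun, Dusp1, Ier2, Atf3, Egr1, Fos and Fosb. The intervals of Dusp1 and Ier2 overlapped, as did those of Egr1, Fos and Fosb, so these have no order. After heat shock it was Dusp1, Ier3, Jun, Junb, Myc, Egr1, Ier2, Atf3, Fosb and Fos. Here the intervals of Jun (12.7 to 14.5 RPKM) and Junb (11.0 to 13.4) overlapped, as did those of Egr1 (7.43 to 8.54) and Ier2 (6.96 to 9.02). In heat-shocked cytoplasm Ier3, Dusp1 and Junb led at 21.5, 17.6 and 15.3 RPKM, with the intervals of Dusp1 (16.2 to 19.1) and Junb (13.7 to 17.1) overlapping. These levels are per length of the whole gene, so genes with introns such as Atf3 appear lower relative to Jun, Junb and Ier2, which lack introns.

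The next comparison set chromatin against cytoplasm within each condition, which shares libraries with the heat shock comparisons above. Without heat shock, 9 of the 10 genes had more RPKM in chromatin, which was also the direction of the median gene. The median log2 RPKM ratio was 1.24 for the 10 genes, against 1.51 for the 15792 genes listed in both libraries. Atf3 had the highest point value, inside the wide interval of Egr1, which stood at 5.87-fold (0.882 to 250). Next were Dusp1 at 4.49-fold (2.63 to 8.22), Ier2 at 2.64-fold (1.46 to 5.18), Myc at 2.41-fold (2.06 to 2.85), Jun at 2.30-fold (1.73 to 3.10) and Ier3 at 2.13-fold (1.66 to 2.76). Junb was 1.72-fold higher in chromatin (1.29 to 2.32), and the intervals of Fos (0.242 to 4.10) and Fosb (0.496 to 6.59) spanned 1. The whole interval lay past 2-fold for 3 genes, Atf3, Dusp1 and Myc, against a background of 43.2% of 15792 genes.

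After heat shock the median log2 ratio was 0.64 for the 10 genes, against 1.75 for the 19842 genes listed in both libraries. The point value of the chromatin excess was smaller than without heat shock for 7 of the 10 genes. For Egr1, 1 of these 7, the interval of the change given below spanned no change. The share of all genes with a smaller excess was not computed. Over the 14994 genes listed in all 4 libraries, the median change went the other way, by 0.39 in log2 toward chromatin. The chromatin excess after heat shock was 2.81-fold for Atf3 (2.62 to 3.03), 1.73-fold for Egr1 (1.50 to 1.99) and 1.84-fold for Dusp1 (1.67 to 2.02). For Jun it was 1.40-fold (1.24 to 1.59) and for Ier3 1.23-fold (1.07 to 1.42). Ier2 stood at 1.04-fold (0.838 to 1.30) and Fos at 1.17-fold (0.772 to 1.81), so neither was apart from equal RPKM. Junb was 1.26-fold higher in cytoplasm (1.09 to 1.46). Fosb was at 3.51-fold (2.72 to 4.59) and Myc at 3.26-fold (2.78 to 3.85), and both intervals overlapped that of Atf3. The whole interval lay past 2-fold for 3 genes, Fosb, Atf3 and Myc, against 44.2% of 19842 genes. The direction of these fraction ratios depends on the scale. On the deposited scale of RPKM + 1, 2 of 8 kept genes passed 2-fold toward chromatin in each condition (background 32.4% without and 45.8% after heat shock). With the median ratio of all kept genes set to 0, 0 of the 8 passed in either condition. The same held with the 10 genes of highest mean RPKM left out of the library total. The background on these changed scales was not computed.

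**Figure D4:**
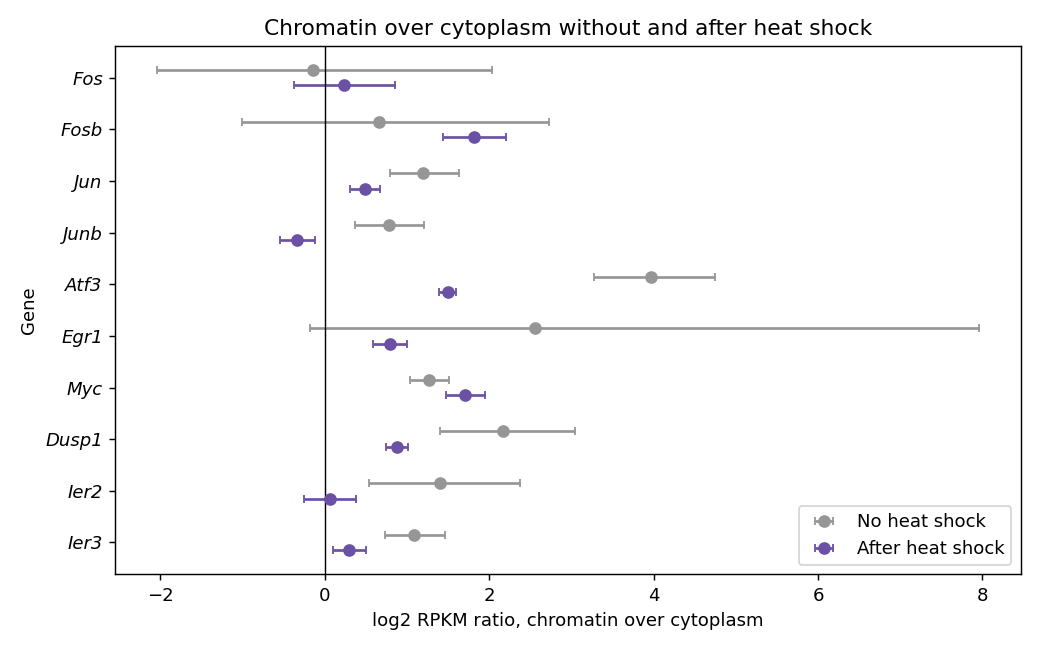
log2 RPKM ratio of chromatin over cytoplasm for each gene without heat shock (grey) and after it (purple), with exact 95% counting intervals. For Jun, Junb, Atf3, Egr1, Dusp1, Ier2 and Ier3 the purple point lies to the left of the grey one, and for Fos, Fosb and Myc to the right.

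The shift between fractions can be stated as the heat shock ratio in cytoplasm over that in chromatin. It was 5.54 for Atf3 (exact conditional interval on reads 3.41 to 9.62), 2.53 for Ier2 (1.33 to 5.16), 2.44 for Dusp1 (1.42 to 4.50), 2.17 for Junb (1.56 to 3.03), 1.73 for Ier3 (1.29 to 2.33) and 1.64 for Jun (1.20 to 2.27). For these 6 genes the interval lay above 1. The share of all genes with such an interval was not computed. For Egr1 it was 3.40 with an interval of 0.505 to 145, and for Fos (0.770, 0.190 to 3.74) and Fosb (0.450, 0.136 to 1.94) it spanned 1 as well, so no difference was detectable at this depth. Myc lay the other way, at 0.740 (0.586 to 0.934).

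In log2 terms the chromatin ratio minus the cytoplasmic ratio was at most -1 for 5 of the 10 genes, against 14.4% of 14994 genes listed in all 4 libraries. It was at least 1 for 1 gene, Fosb, against 26.9%, and the median over all those genes was 0.39. A change of scale adds the same constant to the difference of every gene. The constant was -0.41 with the same RPKM sum, 0.03 without the 10 highest genes and -0.70 with the medians set to 0. On the deposited scale the 6 genes with intervals above 1 stood between -0.71 for Jun and -2.47 for Atf3. None of these constants could turn their sign, so their kept direction is no check of it. The sign of Myc turned to -0.27 with the medians set to 0, and that of Fos to -0.04 with the same RPKM sum and -0.33 with the medians set to 0. With RPKM + 1 in the ratios, 0 of the 8 kept genes had a difference of at least 1 toward chromatin (background 16.5%). Toward cytoplasm, none of the 10 genes reached -1 on this scale. The lowest was Junb at -0.97, and 5 of the 10 lay below 0. The difference turned to 0.42 for Atf3 and 0.52 for Egr1, whose unstressed cytoplasmic values are far below the added 1 RPKM. Both are among the 5 genes at -1 or less in plain ratios, where Egr1 rests on 1 unstressed cytoplasmic read.

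Across the 4 libraries, the genes most like the median profile of the 10 were sought among 765 other genes with a mean of at least 5 RPKM, by the Euclidean distance of centred log2(RPKM + 1). The nearest was ENSMUSG00000028195, a gene of 3006 bp at a distance of 0.485. It had 41.6 and 72.3 RPKM in chromatin without and after heat shock and 16.4 and 55.3 in cytoplasm. The second was ENSMUSG00000055296, a gene of 80515 bp at a distance of 0.660, with 7.22 and 14.9 RPKM in chromatin and 4.13 and 7.60 in cytoplasm. Both were higher after heat shock in both fractions and higher in chromatin than in cytoplasm in both conditions, as was the median profile. They were chosen by nearness to that profile, so the shared directions follow largely from the choice. Among the 5 nearest, ENSMUSG00000103625 alone had more RPKM in cytoplasm, at 52.3 and 119 without and after heat shock, against 46.5 and 106 in chromatin.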

How the data were processed

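RNA-seq of chromatin and cytoplasm was analysed in 4 libraries grouped by sample title, and 4 immunoprecipitated or input libraries were not analysed here. The deposited files hold 1 RPKM value per Ensembl identifier, computed by the authors. Per the submitters' processing notes, cutadapt and STAR were among the tools and GRCm38 was the build. How reads were counted, on which annotation and with which strand, is not given in the sources used here. Gel selection of short RNA fragments is described per the labels' protocols.

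For genes with few reads the inverse RPKM, in single reads and bases, came out whole (tolerance 0.002) and as a multiple of the library's total, so totals came from greatest common divisors of 20000 random pairs. Reads and lengths were the smallest whole numbers that gave all values (relative error below 1e-12), which can come out too small for some genes. Recovery and ratios were tested on simulated data. Ratios used plain RPKM or, for counts over kept genes, RPKM + 1 for genes averaging 1 RPKM or more. Intervals are Clopper-Pearson for 1 gene and exact conditional for 2 ratios. PCR reads are not independent molecules, so intervals cover counting error only. All 10 members are named, and the other gene lists could not be matched to identifiers. The members, lists, motifs and settings were chosen with earlier results of these data known. The software was scipy 1.17.1, pandas 2.3.3 and numpy 2.4.6 under Python 3.11.15.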

Additional observations from a re-analysis of the deposited data

Results flagged for a closer look

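Myc was the gene of the 10 whose heat shock ratio lay on opposite sides of 1 in the 2 fractions. Its log2 RPKM ratio was above 0 in chromatin by less than its counting interval and was -0.43 in cytoplasm, a difference of 0.43. With 1 library per group this difference was not tested. With the medians of all kept genes set to 0 the difference turned to -0.27. No group has enough libraries to look for a library apart from the others.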

How the results depend on the processing

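No paired analysis was possible because each group has 1 library, and for the same reason no library could be left out. In chromatin, heat shock took 5 of 8 kept genes to 2-fold or more, 3 with the same RPKM sum and 2 of 5 under a minimum mean of 5 RPKM, which removes members. Their median log2 ratio of 1.27 moved to 0.78 and 0.74 in these settings. In cytoplasm 7 of 8 reached 2-fold, and 4 of 5 under the minimum of 5 RPKM. The cytoplasmic median of 1.73 was 2.43 with a pseudocount of 0.1 RPKM, 2.51 with plain ratios and 2.13 when the 10 highest genes were left out of the scale. In unstressed cells 2 of 8 passed 2-fold toward chromatin, against 6 with a pseudocount of 0.1 RPKM, 7 with plain ratios, 7 after equalising the RPKM sum, and 0 after centring on the median or leaving out the 10 highest genes. After heat shock the 2 of 8 became 7 after equalising the sum, 0 in the latter settings and 1 of 5 under the minimum of 5 RPKM. The heat shock difference was at least 1 higher in chromatin for 0 of 8, 1 with the same RPKM sum and 1 of 10 with no filter. The share of all genes passing in these changed settings is not given here, so the counts describe the members only. The cause of these shifts was not tested. The rule on whole counting intervals and the scales tried on the difference between fractions were added after seeing the data. Depth limits Fos, Fosb and Egr1, with 1 to 14 reads in the unstressed libraries.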
